A study of Mus musculus with 21 samples.

Results

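The 10 chemokine genes described here, Ccl2, Ccl6, Ccl7, Ccl8, Ccl9, Ccl11, Ccl24, Cxcl12, Cxcl14 and Cx3cl1, were measured by RNA sequencing in hearts of a mouse model that combines diet-induced obesity with renin. They were taken as a named list of chemokines from the 19096 genes of the deposited gene matrix. Ccl11 was chosen by its fall in the hearts that received both the high-fat diet and renin, so every comparison with that group gives values for Ccl11 and no test. All 10 genes passed the filter on low counts and were among the 15216 genes tested.

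All mice were male C57BL/6NJ, 8 to 10 weeks old at the start, and ate chow or a high-fat diet (HFD, 60% of kcal as fat) for 10 weeks. Each was injected with AAV-Renin, an adeno-associated vector for renin, or with a null vector, and hearts were frozen 6 weeks later. The 4 groups are named here chow null (n = 4), chow renin (n = 6), HFD null (n = 6) and HFD renin (n = 5). The sample labels write novirus for the groups that the series description gives a null vector. The promoter that drives renin is not given in the sources used here. Each library came from 1 heart.

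Chemokines are small secreted proteins that direct the movement of leukocytes through receptors on their surface. In the heart they are made by fibroblasts, endothelial cells, macrophages and muscle cells, and they draw monocytes, neutrophils and eosinophils or keep progenitors and vessels in place. The classes are named for the spacing of the first cysteines of the mature protein. Those are adjacent in CC chemokines, separated by 1 residue in CXC chemokines and by 3 in Cx3cl1.

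The coding stretches around these cysteines show the 3 classes in the genes on which the results turn. Sequences are from GENCODE M21 transcripts on GRCm38, written 5′ to 3′ on the gene's strand, with both cysteine codons in capitals. A stretch of 54 bases was printed for CC, 57 for CXC and 63 for CX3C genes.
Ccl2: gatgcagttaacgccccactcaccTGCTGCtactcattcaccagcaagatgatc
Ccl7: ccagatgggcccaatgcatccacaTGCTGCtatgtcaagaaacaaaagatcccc
Ccl11: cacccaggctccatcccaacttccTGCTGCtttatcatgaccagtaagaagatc
Cxcl12: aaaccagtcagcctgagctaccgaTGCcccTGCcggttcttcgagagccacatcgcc
Cx3cl1: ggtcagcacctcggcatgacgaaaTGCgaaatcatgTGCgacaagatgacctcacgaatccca
The Ccl2 stretch joins exons 1 and 2 at chr11:82035737-82036535, that of Ccl7 exons 1 and 2 at chr11:82045856-82046567, and that of Ccl11 exons 1 and 2 at chr11:82058036-82061725. The Cxcl12 stretch lies within exon 2 at chr6:117171484-117171540. The Cx3cl1 stretch joins exons 1 and 2 at chr8:94772334-94778089. All these genes are on the plus strand.

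Of the 10 genes, 6 lie on chromosome 11. Ccl2, Ccl7, Ccl11 and Ccl8 follow each other in that order on the plus strand between positions 82035571 and 82116799, and Ccl9 and Ccl6 lie on the minus strand between 83572919 and 83593087. Although the CC genes are related, no stretch of 31 bases of any member's transcripts occurred in those of another member. Ccl9 shared 3.98% of its stretches of 31 bases with other genes, 1918 in number, and Ccl6 shared 1.02%, with Slc17a4 alone. Ccl2, Ccl7, Ccl8, Cxcl14 and Cx3cl1 shared none.

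Library totals ran from 18743226 to 29265430 estimated reads. The chow null totals, up to 21414093, lay below all others, from 22805569 up, so depth and chow null cannot be told apart. Levels are given as CPM, the read count scaled to a common library size with TMM factors, a log2 fold change is positive when the group named first is higher, and called means an adjusted p below 0.05. Read counts cover counting error only, and the labels do not say whether litters or cages were shared between groups. Cardiomyocyte markers (Myh6, Tnnt2 and the other 4) were high in every library, but their summed level differed between groups, at 47856 to 58573 CPM in chow null, 44126 to 46631 in chow renin, 44772 to 52446 in HFD null and 39128 to 45509 in HFD renin hearts. Against chow null, Myh6 and Actc1 were called lower in chow renin, and Myh6, Tnnt2 and Tnni3 in HFD renin, of 6 tested; the part of this in the chemokine results was not tested. In 5 libraries, spread over all groups, the atrial marker score lay above 4, a score not normalized to each library's own size. The mouse's own Ren1 was detected in 4 of 21 libraries with no more than 5 reads, and reads from the vector were not separately measured here.

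**Figure D1:**
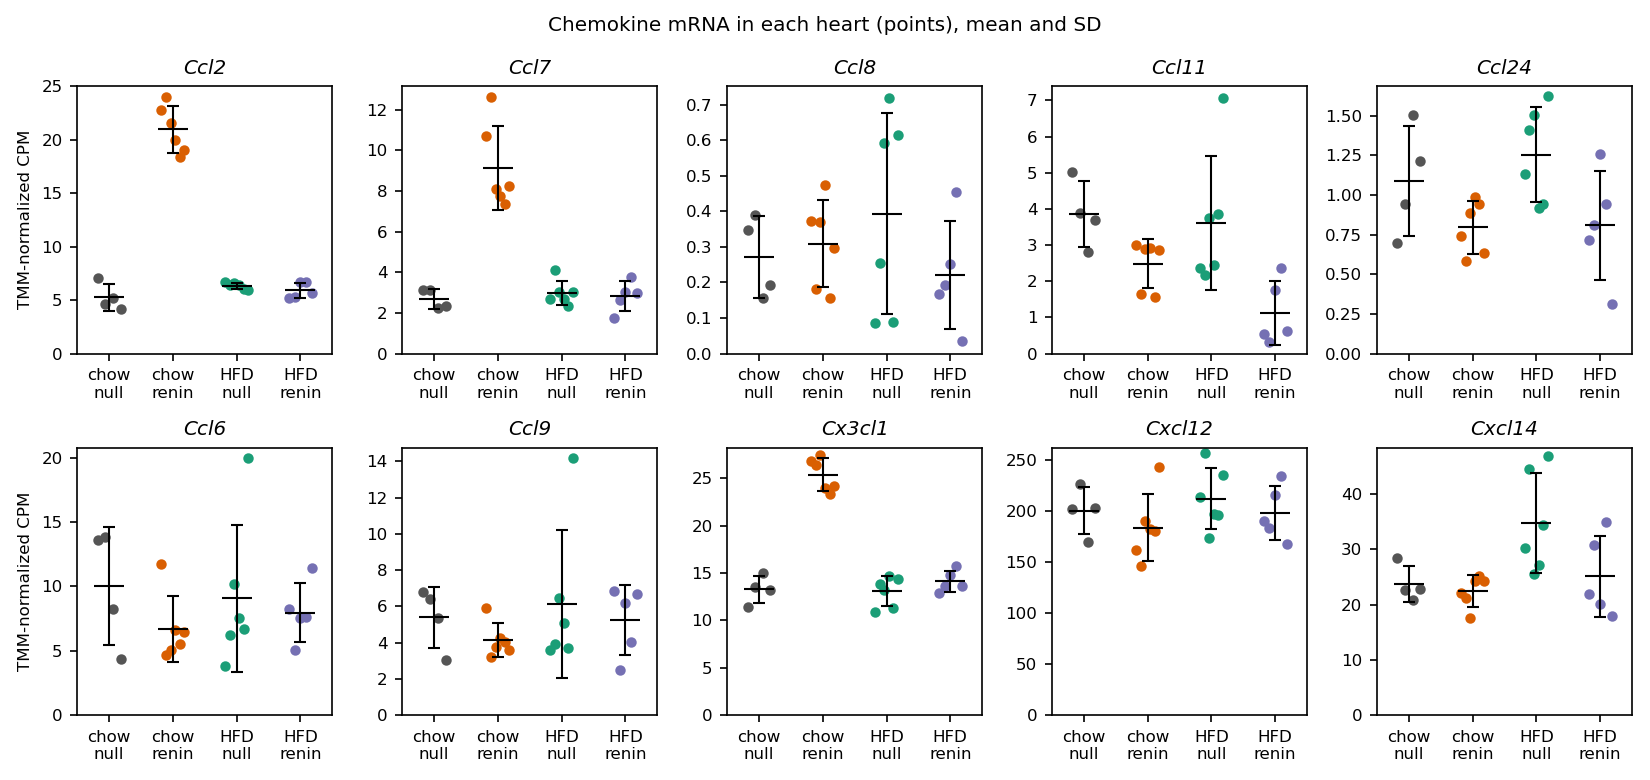
TMM-normalized CPM (vertical axes, starting at 0) of each chemokine in every heart, by group (chow null, chow renin, HFD null, HFD renin); points are hearts, horizontal bars the means and error bars the SD. Ccl2, Ccl7 and Cx3cl1 of the 6 chow renin hearts lie above every other heart, with Ccl2 at 18.4 to 24.04 CPM against at most 7.02 elsewhere.

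Ccl2 and Ccl7, ligands of Ccr2 that draw monocytes out of bone marrow and blood, and Cx3cl1 (fractalkine), a membrane-bound chemokine for cells with Cx3cr1, were higher in chow renin hearts than in chow null hearts. On the log2 scale, the ratio of the group means of Ccl2 was 1.999 from CPM and 2.11 from TPM, and that of Cx3cl1 was 0.94 from CPM, 1.16 from TPM and 1.05 from the deposited signal. None of the 3 was called between HFD renin and HFD null, and the difference between the diets in the renin effect passed its test for each. The other 7 chemokines were not called between chow renin and chow null.

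Ccl2 measured 7.02, 4.67, 5.19 and 4.12 CPM in the 4 chow null hearts. In the 6 chow renin hearts it ran from 18.4 to 24.04 CPM, with a median of 20.8. Every chow renin heart stood above every heart of the other groups. HFD null hearts ran from 5.96 to 6.67 CPM, with a median of 6.41, and HFD renin hearts held 5.23, 5.30, 6.68, 6.66 and 5.65 CPM. These 2 groups overlapped each other and chow null. The read counts behind these levels were 469 to 675 in chow renin and 84 to 191 in the other groups. Between chow renin and chow null the log2 fold change was 1.998 (SE 0.12, fold 3.99, adjusted p = 4.4e-11).

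Ccl7, which lies next to Ccl2 among the members on chromosome 11, measured 3.14, 3.11, 2.23 and 2.33 CPM in chow null hearts. Chow renin hearts ran from 7.34 to 12.6 CPM, with a median of 8.17. HFD null hearts ran from 2.34 to 4.09 CPM, with a median of 2.86, and HFD renin hearts held 1.77, 2.63, 3.02, 3.77 and 2.96 CPM. Again chow renin stood apart from the other 3 groups, which overlapped. Its log2 fold change between chow renin and chow null was 1.76 (SE 0.20, fold 3.38, adjusted p = 4.9e-07). Per length, as TPM (transcript abundance corrected for length), Ccl2 exceeded Ccl7 in all 4 groups, with a mean ratio within a heart of 1.89 ± 0.362 (SD, n = 4) in chow null, 2.29 ± 0.286 (n = 6) in chow renin, 2.14 ± 0.371 (n = 6) in HFD null and 2.11 ± 0.447 (n = 5) in HFD renin. The ranges of that ratio overlapped between all groups.

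Cx3cl1 measured 11.4, 13.6, 14.95 and 13.2 CPM in chow null hearts. In chow renin hearts it ran from 23.4 to 27.4 CPM, with a median of 25.3. HFD null hearts ran from 10.9 to 14.7 CPM, with a median of 13.5, and HFD renin hearts held 12.9, 13.6, 14.8, 15.7 and 13.6 CPM. The chow renin hearts did not overlap the rest. The log2 fold change between chow renin and chow null was 0.94 (SE 0.09, fold 1.91, adjusted p = 6.6e-08).

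These 3 made up the members called between chow renin and chow null, 3 of 10 higher and 0 of 10 lower, where 10.1% of all genes tested were called higher and 3.36% lower. The median log2 fold change was -0.10 over the 10 members and -0.03 over all genes tested. Among the other 7, adjusted p ran from 0.37 for Ccl11 to 0.89 for Ccl8, and no further member had an unadjusted p under 0.05.

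Between HFD renin and chow renin the same 3 genes were called lower, 3 of the 9 members tested, beside 12.8% of all genes called lower. None of the 9 was called higher, beside 9.8% of all genes. The log2 fold change was -1.83 (SE 0.11, adjusted p = 1.9e-11) for Ccl2, -1.68 (SE 0.18, adjusted p = 1.8e-07) for Ccl7 and -0.84 (SE 0.08, adjusted p = 8.1e-08) for Cx3cl1. This comparison shares the chow renin hearts with the one above.

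The interaction, which is the renin effect in HFD hearts less the renin effect in chow hearts, was -2.10 for Ccl2 (SE 0.16, adjusted p = 7.6e-09), -1.82 for Ccl7 (SE 0.27, adjusted p = 3.9e-05) and -0.82 for Cx3cl1 (SE 0.13, adjusted p = 5.8e-05) on the log2 scale. These 3 of 9 members were called lower, beside 7.3% of all genes, and 0 of 9 were called higher, beside 3.14%. The 3 calls in each of these comparisons were kept when any library was left out in turn. They were also kept in the 16 libraries low in atrial markers, a subset chosen after seeing the data.

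**Figure D2:**
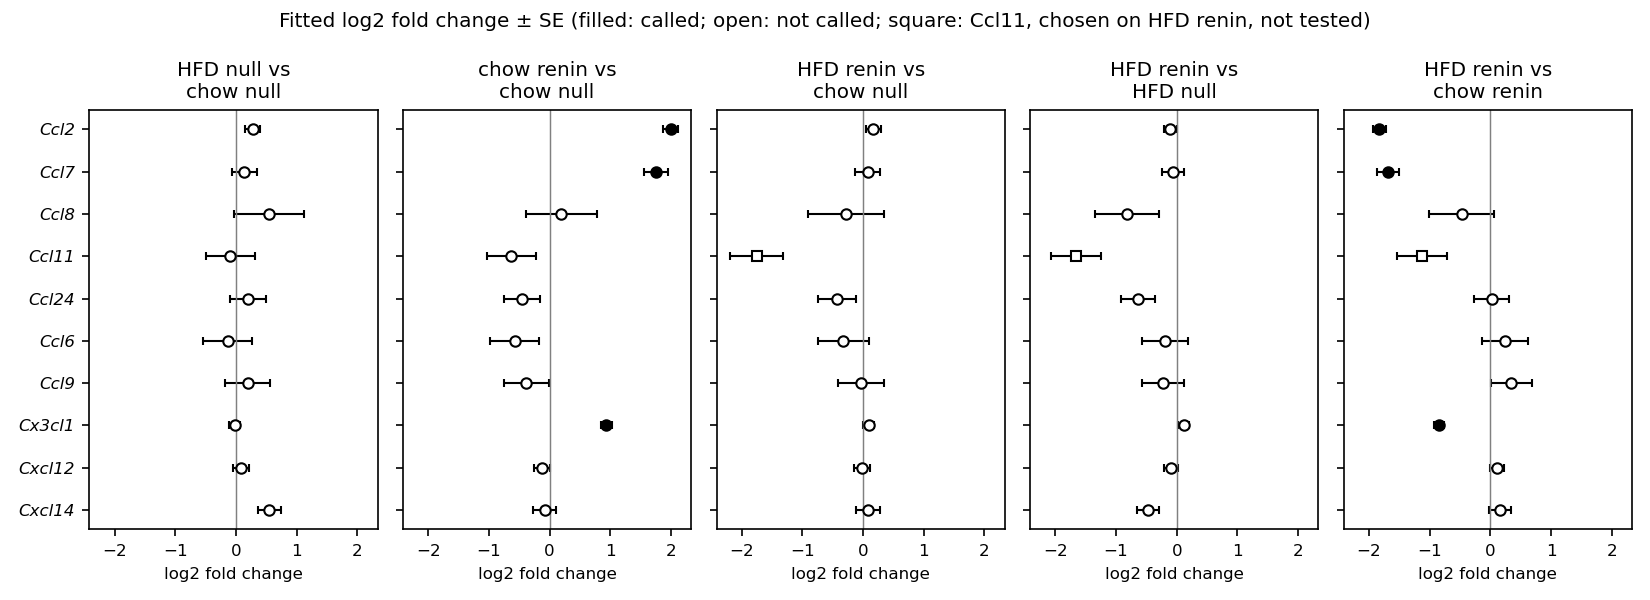
Fitted log2 fold change ± SE (horizontal axes) of each chemokine (rows) in the 5 comparisons between groups (panels); filled points were called, open points were not, and squares mark Ccl11 where it was not tested. Ccl2, Ccl7 and Cx3cl1 lie at 1.998, 1.76 and 0.94 for chow renin against chow null and at -1.83, -1.68 and -0.84 for HFD renin against chow renin.

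Markers of other cells moved with the same group of hearts. The stimulated mesenchymal list (Grem1, Ptgs2, Spp1, Saa3, Areg and Il1rl1) had 6 of 6 genes called higher in chow renin than in chow null, with summed levels of 392 to 496 CPM in chow renin, 98.8 to 116 in chow null, 93.5 to 124 in HFD null and 88.6 to 97.2 in HFD renin. The choice of this list drew on what was already known of these libraries, and it is no independent evidence. Saa3, an acute phase protein, measured 76.7 ± 3.07 CPM (SD, n = 6) in chow renin hearts and 17.3 ± 0.830 (n = 4) in chow null hearts. The central neuron list had 6 of 6 genes called higher as well, at 143 to 229.02 CPM in sum in chow renin, 49.6 to 57.3 in chow null, 60.8 to 83.7 in HFD null and 48.1 to 83.8 in HFD renin. Snap25, a synaptic protein of neurons, measured 61.2 ± 14.1 CPM (n = 6) in chow renin hearts and 11.8 ± 1.78 (n = 4) in chow null hearts. None of the defining markers in these 2 lists was at 0 in any heart, and the part of the stimulated mesenchymal list in these results was not tested.

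With the central neuron score (the mean log2 CPM of its list) as a covariate, an alternative chosen after seeing the data, none of the 3 calls between chow renin and chow null remained. The log2 fold change was then 1.26 for Ccl2 (adjusted p = 0.07), 0.07 for Ccl7 (adjusted p = 0.99) and 0.52 for Cx3cl1 (adjusted p = 0.55). In the interaction Ccl2 was -1.39 (adjusted p = 0.048), Ccl7 -0.22 (adjusted p = 0.99) and Cx3cl1 -0.42 (adjusted p = 0.96) under that covariate. Between HFD renin and chow renin Ccl2 was -1.34 (adjusted p = 0.00045), Ccl7 -0.58 (adjusted p = 0.80) and Cx3cl1 -0.57 (adjusted p = 0.29). The score of the chow renin hearts, 4.12 to 5.03, did not overlap that of the others, 2.01 to 3.32, so the score and that group cannot be fully told apart. After group means were subtracted, the score followed Ccl2 with a Spearman rho of 0.696 and Ccl7 with 0.691 over 21 hearts (0.639 and 0.604 without the 2 hearts farthest from the median score). These are descriptions over libraries that share depth and preparation, and the score was not normalized to each library's own size.

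The macrophage list (Adgre1, Csf1r, Cd68, C1qa, C1qb and Mrc1) summed to 81.6 to 99.0 CPM in chow renin and 86.2 to 120 in chow null hearts, with 0 of 6 genes called higher and 1, Mrc1, called lower. Markers of recruited monocytes, which carry Ccr2, summed to 8.51 to 13.2 CPM in chow renin, 7.79 to 10.8 in chow null, 8.90 to 15.04 in HFD null and 9.01 to 11.8 in HFD renin, and 0 of the 5 tested were called in any of the 6 comparisons. In whole hearts fewer cells of a type and less RNA per cell cannot be told apart.

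Ccl8, a CC chemokine related to Ccl2 and Ccl7, was the lowest member, with 1 to 18 reads in a heart. It held 0.349, 0.389, 0.156 and 0.194 CPM in chow null hearts, 0.157 to 0.475 CPM in chow renin hearts, 0.0872 to 0.719 in HFD null hearts, and 0.169, 0.193, 0.251, 0.453 and 0.0349 in HFD renin hearts. The groups overlapped throughout. The log2 fold change between chow renin and chow null was 0.19, with a 95% interval from -0.96 to 1.34, so a change of the size seen for Ccl2 lies outside that interval but a 2-fold rise does not.

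Ccl11 and Ccl24 are eotaxins, ligands of Ccr3 that draw eosinophils. Ccl11 was lowest in HFD renin hearts, the group it was selected on. It measured 5.03, 3.89, 2.80 and 3.68 CPM in chow null hearts, and ran from 1.57 to 3.01 CPM, with a median of 2.88, in chow renin hearts. In HFD null hearts it ran from 2.18 to 7.06 CPM, with a median of 3.10. HFD renin hearts held 0.548, 0.309, 1.76, 2.37 and 0.628 CPM, from 13, 8, 49, 68 and 18 reads. All 5 HFD renin hearts lay below every chow null heart, while 1 of the 5 lay within the range of HFD null and 2 within that of chow renin.

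As values with no test, the log2 fold change of Ccl11 in HFD renin was -1.76 (SE 0.44, fold 0.296) against chow null, -1.66 (SE 0.41) against HFD null and -1.13 (SE 0.41) against chow renin. The interaction was -1.03 (SE 0.58). In the comparisons without HFD renin hearts, Ccl11 was -0.63 (SE 0.40, adjusted p = 0.37) for chow renin and -0.10 (SE 0.40, adjusted p = 0.96) for HFD null, each against chow null, and these share the chow null hearts with the comparison that selected the gene. Leaving out 1 library at a time moved the value of HFD renin against chow null between -2.23 and -1.52. In the authors' deposited table, whose reference group is not stated, Ccl11 had a log2 fold change of -1.219.

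The clock score, the mean log2 CPM of day-phase clock genes minus that of Arntl, Npas2 and Clock, also differed between the groups. It was 3.82 to 4.23 in chow null, 3.19 to 3.496 in chow renin, 3.53 to 3.85 in HFD null and 2.40 to 3.45 in HFD renin hearts. With the group means subtracted, Spearman's rho between Ccl11 and the clock score was 0.388 over the 21 hearts and 0.198 without the 2 hearts farthest from the median of the score. For the mesothelial list the same values were 0.630 and 0.667, and for the Schwann cell list 0.570 and 0.633. Both list scores, unlike the clock score, were not normalized to each library's own size. All 3 relations are given as descriptions, over hearts that share the same libraries and depth. With the clock score as a covariate the log2 fold change of Ccl11 in HFD renin was -0.18 against chow null, -0.73 against HFD null and -0.90 against chow renin, and the interaction was -1.44. In the same fit its value for chow renin against chow null turned from -0.63 to 0.71, uncalled in both. The time of collection is not given in the sources used here. The eosinophil list (Prg2, Epx, Siglecf, Ear1, Ear2 and Il5ra) had 0 of 6 genes above the filter, and its summed level was at most 0.654 CPM in any heart.

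Ccl24 measured 0.697, 0.944, 1.51 and 1.21 CPM in chow null hearts, 0.584 to 0.989 in chow renin hearts and 0.918 to 1.62 in HFD null hearts, with medians of 0.816 and 1.27 in the latter pair. HFD renin hearts held 0.716, 0.812, 1.26, 0.942 and 0.314 CPM. The HFD renin and HFD null hearts overlapped. The log2 fold change between them was -0.63 (SE 0.28) and was not called (adjusted p = 0.15, unadjusted p = 0.034). Its reads, 9 to 38 in a heart, were split between coding transcripts of 1295 and 561 bases, with the shorter at 66.5% ± 25.5 (SD, n = 21) of the gene's TPM.

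Ccl6 and Ccl9 are rodent CC chemokines made mainly by myeloid cells and act through Ccr1. Neither was called in any of the 6 comparisons, and the groups overlapped for both. Ccl6 measured 13.6, 13.8, 8.25 and 4.32 CPM in chow null hearts, 4.67 to 11.7 (median 6.01) in chow renin, 3.84 to 19.95 (median 7.12) in HFD null, and 8.22, 5.02, 7.50, 7.60 and 11.4 in HFD renin hearts. Ccl9 measured 6.77, 6.39, 5.35 and 3.05 CPM in chow null hearts, 3.21 to 5.89 (median 3.91) in chow renin, 3.58 to 14.2 (median 4.498) in HFD null, and 6.83, 2.47, 6.21, 4.05 and 6.70 in HFD renin hearts. The highest Ccl6 and the highest Ccl9 came from the same heart, HFD null replicate 6.

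After group means were subtracted, Ccl6 and Ccl9 had a Spearman rho of 0.896 over the 21 hearts (Pearson r 0.897), the highest of the 45 pairs of members. Without the 2 hearts farthest from the median of Ccl6, rho was 0.863. Each also followed the resident macrophage score (Lyve1, Timd4, Folr2, Cd163, F13a1 and Cbr2), with rho of 0.699 for Ccl6 and 0.762 for Ccl9 (0.647 and 0.747 without 2 hearts). Ccl2 and Ccl7 had rho of 0.603 (0.546 without 2 hearts). These correlations are descriptions over libraries that share depth and preparation. The resident macrophage score, like the central neuron score, was not normalized to each library's own size, so its rho is not one with log2 CPM.

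**Figure D3:**
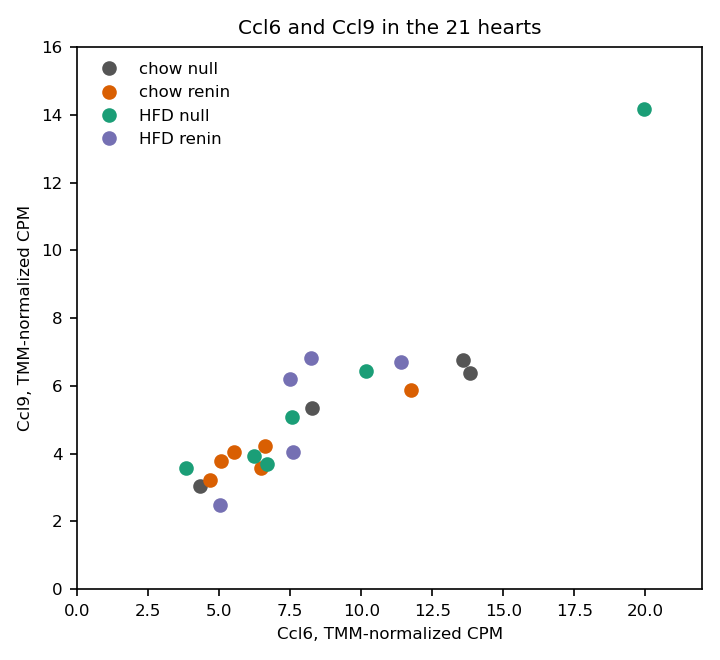
Ccl9 (vertical axis) against Ccl6 (horizontal axis), both as TMM-normalized CPM, in each of the 21 hearts, coloured by group. Hearts of all 4 groups lie along 1 band, and HFD null replicate 6 stands alone at 19.95 CPM of Ccl6 and 14.2 CPM of Ccl9.

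The level of Ccl9 per length depended on how its reads were split between transcripts. A processed transcript of 398 bases with no coding sequence took 0% of the gene's TPM in 13 of 21 hearts. It took 32.7% to 63.5% in 5 of the 6 chow renin hearts, 61.2% in chow null replicate 4, 60.1% in HFD null replicate 5 and 26.0% in HFD renin replicate 3. The log2 ratio of the chow renin mean to the chow null mean was -0.39 from CPM and 0.38 from TPM, so no direction is given for Ccl9.

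Cxcl12, the ligand of Cxcr4 that retains hematopoietic and immune cells in tissues, was the most abundant member per length in each group and was not called in any of the 6 comparisons. It measured 202, 226.5, 170 and 203 CPM in chow null hearts, and ran from 146 to 243 (median 181) in chow renin and from 174 to 257 (median 206) in HFD null hearts. HFD renin hearts held 190, 184, 216, 234.8 and 168 CPM. The groups overlapped. Its log2 fold change against chow null was -0.12 for chow renin (95% interval -0.37 to 0.12), 0.08 for HFD null (-0.16 to 0.33) and -0.01 for HFD renin (-0.27 to 0.24).

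Of the Cxcl12 transcripts, the coding one of 5627 bases took 62.3% ± 7.28 of the gene's TPM, that of 1878 bases 17.9% ± 3.25, that of 3132 bases 16.9% ± 7.14 and a retained-intron transcript of 2894 bases 3.02% ± 1.73 (SD, n = 21). By group, the mean share of the longest was 65.0% in chow null, 63.2% in chow renin, 56.9% in HFD null and 65.5% in HFD renin, and the ranges of all groups overlapped.

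Cxcl14, a chemokine of epithelia and fat tissue, measured 28.4, 22.7, 20.8 and 22.9 CPM in chow null hearts and 17.6 to 25.2 (median 23.2) in chow renin hearts. HFD null hearts ran from 25.5 to 46.96 CPM, with a median of 32.3, and HFD renin hearts held 21.8, 30.8, 20.1, 35.0 and 17.9 CPM. HFD null thus had the highest values but overlapped chow null and HFD renin. The log2 fold change between HFD null and chow null was 0.55 (SE 0.20, adjusted p = 0.31, unadjusted p = 0.011) and between HFD renin and HFD null -0.47 (SE 0.18, adjusted p = 0.097). The latter was called by DESeq2 (adjusted p = 0.042) and in edgeR without HFD renin replicate 4 (adjusted p = 0.022).

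With the diet alone, 0 of 10 members were called between HFD null and chow null, where 0.0657% of all genes were called. By unadjusted p under 0.05 there were 2, Cxcl14 and Ccl2 (log2 fold change 0.28, SE 0.12, adjusted p = 0.42), and DESeq2 called 0 as well. With both factors, 0 of 9 members tested were called between HFD renin and chow null, beside 8.29% of all genes, with 0 at an unadjusted p under 0.05 and 0 called by DESeq2. For Ccl2 the log2 fold change there was 0.17 (95% interval -0.08 to 0.42), for Ccl7 0.07 (-0.34 to 0.48) and for Cx3cl1 0.09 (-0.10 to 0.28). With renin on the high-fat diet, 0 of 9 members tested were called between HFD renin and HFD null, beside 11.1% of all genes. Here 2, Cxcl14 and Ccl24, had an unadjusted p under 0.05, and DESeq2 called 1, Cxcl14. Ccl2 was -0.11 in that comparison (95% interval -0.32 to 0.11), Ccl7 -0.07 (-0.43 to 0.29) and Cx3cl1 0.11 (-0.05 to 0.28).

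Per length, the order of the members in chow null hearts, as mean TPM ± SD (n = 4), began with Cxcl12 at 36.6 ± 2.05 and Cxcl14 at 12.1 ± 1.44. Ccl2 at 8.13 ± 1.92 and Ccl6 at 7.73 ± 2.81 came next and did not differ beyond their spread. Ccl7 at 4.33 ± 0.758, Ccl11 at 3.91 ± 0.871 and Cx3cl1 at 3.56 ± 0.370 also lay within each other's spread. Ccl9 at 1.84 ± 0.181, Ccl24 at 1.61 ± 0.589 and Ccl8 at 0.922 ± 0.384 closed the order, and in each of the 4 hearts Ccl8 lay below Ccl24.

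In chow renin hearts the order changed at the top. Ccl2 reached 35.2 ± 4.15 TPM (n = 6), beside Cxcl12 at 36.7 ± 5.65, and exceeded it in 2 of 6 hearts but in 0 hearts of the other groups. Ccl7 followed at 15.7 ± 3.52, before Cxcl14 at 12.4 ± 1.398, which it exceeded in 4 of 6 hearts, and Cx3cl1 came next at 7.94 ± 0.752. In HFD renin hearts Ccl11 moved down to ninth place at 1.13 ± 0.876 TPM (n = 5), within the spread of Ccl24 at 1.26 ± 0.597. The 10 members summed to 80.7 ± 7.55 TPM (n = 4) in chow null, 121.5 ± 9.08 (n = 6) in chow renin, 87.2 ± 19.4 (n = 6) in HFD null and 78.5 ± 11.1 (n = 5) in HFD renin hearts.

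**Figure D4:**
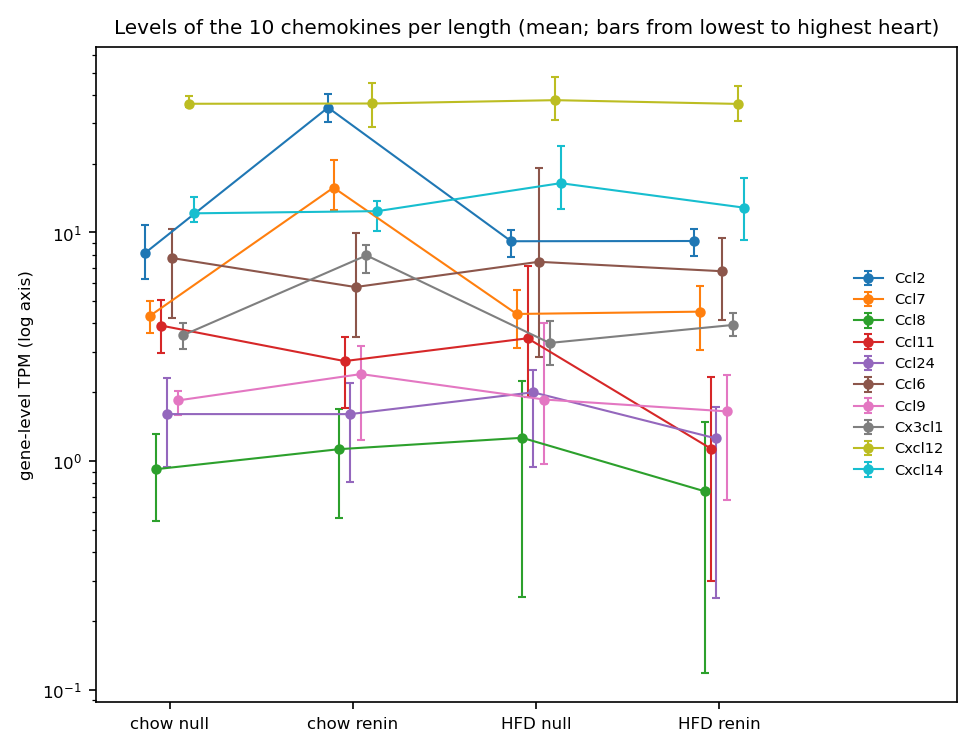
Mean gene-level TPM (vertical axis, log scale) of each chemokine in the 4 groups (horizontal axis); bars run from the lowest to the highest heart, and lines only join points of 1 gene. Ccl2 stands at 35.2 TPM beside Cxcl12 at 36.7 in chow renin, against 8.13 and 36.6 in chow null.

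Of 28 other chemokine genes listed, 15 were tested, and 5 of the 15 were called higher in chow renin than in chow null, with 0 lower. Of all genes tested, 10.1% were called higher and 3.36% lower. Their median log2 fold change was 0.05, against -0.03 over all genes tested. Cxcl1, Cxcl2, Cxcl3 and Cxcl5 are ligands of Cxcr2, a receptor on neutrophils. Cxcl1 rose from 6.13 ± 0.331 CPM (SD, n = 4) to 21.9 ± 2.10 (n = 6), Cxcl2 from 0.697 ± 0.206 to 2.57 ± 0.267, Cxcl3 from 8.54 ± 0.574 to 36.9 ± 3.34 and Cxcl5 from 7.43 ± 1.02 to 35.3 ± 3.28. The log2 fold changes were 1.83, 1.86, 2.11 and 2.25. Ppbp, another ligand of Cxcr2 in the list, was not called, at 1.33 ± 0.552 CPM in chow renin and 1.85 ± 0.641 in chow null hearts; it was picked after its values were seen. Cxcl10, an interferon-induced ligand of Cxcr3, rose by 1.21 (adjusted p = 0.026). The neutrophil list (S100a8, S100a9 and the other 4) summed to 2.26 to 4.67 CPM in chow renin and 2.61 to 5.48 in chow null hearts, and 0 of the 4 tested were called. These ligands rose in the same hearts whose stimulated mesenchymal and central neuron lists were high, and the part of the stimulated mesenchymal list was not tested for them. With the central neuron score as a covariate, chosen after seeing the data, Cxcl1, Cxcl3 and Cxcl5 were still called, at 2.44, 2.37 and 1.69, whereas Cxcl2 (2.68, adjusted p = 0.26) and Cxcl10 (2.60, adjusted p = 0.36) were not. With the clock score as a covariate Cxcl2 (1.01, adjusted p = 0.203) and Cxcl10 (0.82, adjusted p = 0.45) were again the ones not called.

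HFD renin hearts held Cxcl1 at 5.57 ± 0.703 CPM (n = 5), Cxcl3 at 7.63 ± 0.567 and Cxcl5 at 7.67 ± 0.917. In the interaction 5 of the 15 were called lower, Cxcl5 at -2.47, Cxcl2 at -2.42, Cxcl3 at -2.21, Cxcl1 at -1.81 and Ccl27a, a skin-type CC chemokine, at -0.75, and 0 were called higher. Of all genes tested, 7.3% were called lower and 3.14% higher in the interaction. The same 5 were called lower between HFD renin and chow renin, where 12.8% of all genes were called lower. With the central neuron score as a covariate Ccl27a was called in neither, at 0.07 (adjusted p = 0.996) and -0.25 (adjusted p = 0.97), and Cxcl2 was not called in the interaction (-3.22, adjusted p = 0.28). Between HFD renin and HFD null, Ccl12, a mouse ligand of Ccr2 related to Ccl2, was called higher (log2 fold change 1.35, SE 0.40, adjusted p = 0.033), at 0.762 ± 0.140 CPM (n = 5) against 0.293 ± 0.107 (n = 6), and Ccl27a lower (-0.48, adjusted p = 0.047), where 11.1% of all genes were called. Neither was called with the clock score as a covariate, Ccl12 at 1.199 (adjusted p = 0.99) and Ccl27a at -0.07 (adjusted p = 0.999), and that fit called 0 genes in this comparison. Both were still called with the central neuron score as a covariate, Ccl12 at 1.401 (adjusted p = 0.022) and Ccl27a at -0.54 (adjusted p = 0.020). None of the 15 was called with the diet alone.

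**Figure D5:**
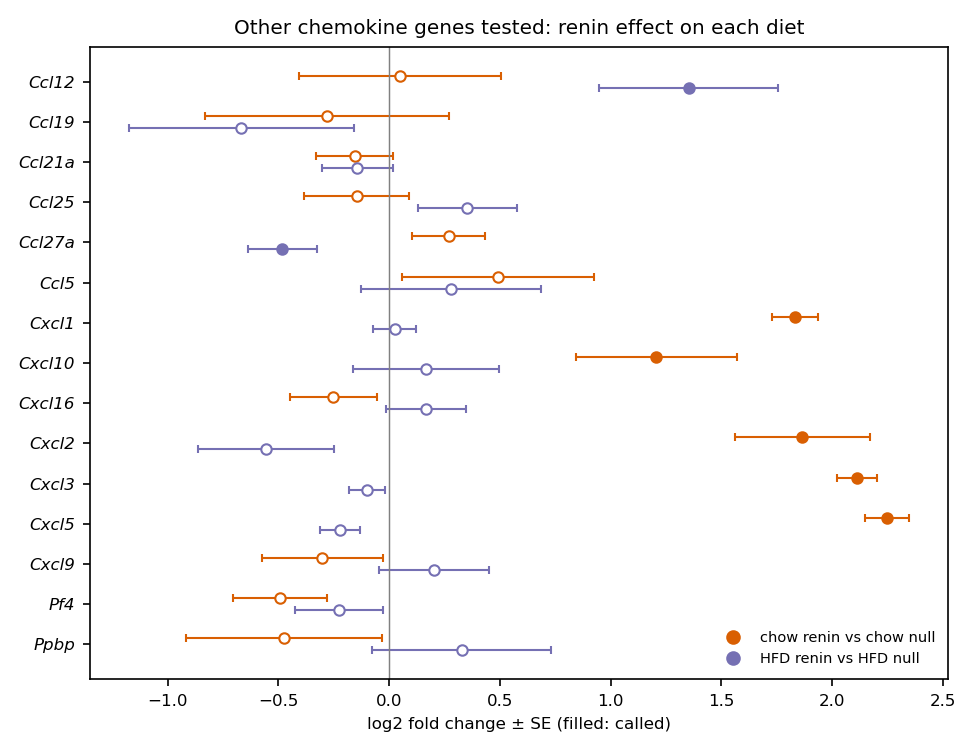
Fitted log2 fold change ± SE (horizontal axis) of the 15 other chemokine genes tested (rows) for renin in chow hearts (orange) and in HFD hearts (purple); filled points were called. Cxcl1, Cxcl2, Cxcl3, Cxcl5 and Cxcl10 lie between 1.21 and 2.25 in chow hearts, and for HFD hearts Ccl12 lies at 1.35 and Ccl27a at -0.48.

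Of 18 receptor genes listed, 8 were tested. Ccr2 measured 1.93 ± 1.23 CPM (n = 6) in chow renin and 1.70 ± 0.832 (n = 4) in chow null hearts, Cx3cr1 2.56 ± 0.144 and 2.04 ± 0.908, and Cxcr4 4.11 ± 0.739 and 4.78 ± 1.72; these 3 were picked after their values were seen, as receptors of members, and none of the 3 was called in any of the 6 comparisons. Ccr3, the eotaxin receptor, was not among the genes tested.

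All 8 genes for atypical receptors and ligand processing were tested. Ackr1, a scavenging receptor on venules and red cells, was called higher in chow renin than in chow null (1.84, SE 0.52, adjusted p = 0.017), from 1 to 24 reads in a heart, and lower in HFD renin than in chow renin (-1.29, adjusted p = 0.031). Ccrl2, which binds chemerin, was called lower in HFD renin than in chow null (-0.91, adjusted p = 0.011) and than in chow renin (-0.56, adjusted p = 0.036). Ackr4, a scavenger of CC chemokines, was called higher in HFD renin than in chow renin (0.97, adjusted p = 0.0084). Adam10, a protease that sheds Cx3cl1, was called higher in HFD renin than in HFD null (0.31, SE 0.08, adjusted p = 0.014), at 39.8 ± 3.75 CPM (n = 5) against 32.1 ± 4.20 (n = 6), and Adam17, Ackr3, Ackr2 and Dpp4 were called in none of the 6 comparisons. The comparison of HFD renin with chow renin called 3 of the 8, beside 22.6% of all genes; between HFD renin and HFD null it was 1 of the 8 beside 11.1%, between HFD renin and chow null 1 of the 8 beside 8.29%, and between chow renin and chow null 1 of the 8, called higher, beside 10.1%. With the clock score as a covariate, Ackr1 was still called between chow renin and chow null (3.56, adjusted p = 0.0038), and the other calls of these genes were lost. That fit called 0 of all genes tested in HFD renin against chow null, and 0 in HFD renin against HFD null. Ccrl2 was then at -0.13 (adjusted p = 0.97) against chow null and -0.40 (adjusted p = 0.16) against chow renin, Adam10 at 0.16 (adjusted p = 0.99), Ackr4 at 0.79 (adjusted p = 0.061) and Ackr1 at -0.95 (adjusted p = 0.13) between HFD renin and chow renin. With the central neuron score as a covariate, Ccrl2 against chow null (-1.42) and Adam10 (0.32) were still called, and Ackr1 in chow renin against chow null (0.16, adjusted p = 0.99) was not. In that fit none of the 3 genes was called between HFD renin and chow renin, with Ackr4 at 1.30 (SE 0.59, adjusted p = 0.78), Ackr1 at -0.21 (SE 0.90, adjusted p = 0.999) and Ccrl2 at 0.41 (SE 0.32, adjusted p = 0.95), the sign of Ccrl2 having turned.

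The genes most like Ccl11 over the 21 hearts, by Spearman rho of log2 CPM after group means were subtracted, were Rps23 (0.914), Rps24 (0.895), Tecr (0.877), Rp9 (0.868) and Nenf (0.860), among 13156 genes with a mean of at least 1 CPM. Rps23 and Rps24 encode proteins of the small ribosomal subunit. The 99th percentile of rho with Ccl11 over those genes was 0.721. For Cxcl12 they were Anapc5 (0.848), Smtn (0.830), Lgals4 (0.806), Kcnk4 (0.792) and Taz (0.788), with a 99th percentile of 0.629. These lists describe libraries that share depth and preparation.

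Promoters from 250 bases before to 50 bases after the gene start were matched for 6 members, Ccl6, Ccl8, Ccl9, Cxcl12, Cxcl14 and Cx3cl1, in RefSeq on GRCm38.p6, and searched on both strands. The AP-1 type motif TGANTCA was found in Ccl9 (in 7.81% of 32851 promoters), the kappaB motif in Ccl9 (8.46%), TTCNNNGAA in Cxcl14 (8.30%), TATAAA in Ccl8, Ccl9 and Cx3cl1 (13.6%) and GGGCGG in Cxcl12, Cxcl14 and Cx3cl1 (35.7%). CACGTG (7.15%) was found in none of the 6. Matches are letters in a window and nothing more.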

How the data were processed

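RNA of 21 mouse hearts was sequenced, 1 library each. The authors quantified transcripts with Salmon 1.10.2 and used DESeq2 1.40.2 and the build GRCm38 (mm10), per the submitters' processing notes. The deposited tables per library give estimated counts (expected counts, not normalized) and TPM for 119215 transcripts. A deposited gene matrix gives a normalized signal, whose scaling is not stated, with the authors' log2 fold change and adjusted p-value against a reference that is not stated.

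Transcripts were matched by identifier to GENCODE M21 (98.0%); the unmatched ones held 0.854% to 0.925% of reads. Counts were added up per gene and rounded to whole numbers. edgeR 4.0.16 (R 4.3.3) fitted all 4 groups together, with filterByExpr, TMM factors (0.886 to 1.09) and the robust quasi-likelihood test. Benjamini-Hochberg adjustment ran over 15216 genes, which held 99.96% of reads. The common biological coefficient of variation was 0.154. SE was taken from the F statistic as |log2 fold change| / √F, and 95% intervals are the estimate ± the normal quantile times SE. CPM are cpm() values, and marker scores use a prior count of 2. Except for the clock score, these scores divided counts by library sizes not matched to their libraries. They are thus not normalized for depth, and fits and correlations with them were not repeated with corrected scores. Summed marker levels are not affected. Alternatives used DESeq2 1.42.0, limma 3.58.1, other factors, no filter, covariates, a replicate block and leaving out each library. The fits were tested on simulated data. No pair of libraries of a group agreed within sampling noise (chi-square per degree of freedom 3.51 to 55.6 over 46 pairs).

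The members and all lists were chosen with earlier results of these data known. Named are all members, of the other chemokine lists the called genes (at most 6 per comparison, by size, with 1 result not reported here), and the 5 genes most like Ccl11 and like Cxcl12, the member of highest mean TPM.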

Additional observations from a re-analysis of the deposited data

Results flagged for a closer look

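The renin effect differed between the diets, by the interaction test, for Ccl2 (-2.10 on the log2 scale), Ccl7 (-1.82) and Cx3cl1 (-0.822). Each was higher with renin on chow and not called with renin on the high-fat diet. When the central neuron score was a covariate, chosen after seeing the data, the interaction of Ccl7 was -0.22 (adjusted p = 0.99) and that of Cx3cl1 -0.42 (adjusted p = 0.96), not called, and that of Ccl2 was -1.39 (adjusted p = 0.048).

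In 3 cases a single heart stood far from the rest of its group. Chow renin replicate 1 had 11.7 CPM of Ccl6, with the next at 6.61. HFD null replicate 6 had 14.2 CPM of Ccl9, with the next at 6.45, and 7.06 CPM of Ccl11, with the next at 3.87. Of 40 sets of member and group examined, chance alone would mark about 1 in 20. Without HFD null replicate 6, as without any other library, Ccl6 and Ccl9 stayed uncalled in each comparison, and Ccl11 in HFD renin stayed between -2.13 and -1.36 against HFD null.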

How the results depend on the processing

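The count of all genes called moved with several settings. HFD renin against chow null (1262) gave 803 with only its groups in the fit, 761 from the signal, 689 and 723 from TPM with pseudocounts of 1 and 0.1, 0 with the clock score as a covariate, and 565 to 1723 with 1 library left out. HFD null against chow null (10) gave 117 in DESeq2, 5 with only its groups, 87 and 111 from TPM, 5 with the clock score, 98 with the central neuron score, 0 in the 16 libraries low in atrial markers, and 0 to 57 with 1 left out. HFD renin against HFD null (1696) gave 549 with only its groups, 881 from the signal, 0 with the clock score, and 696 to 2394 with 1 left out. The clock score gave 1295 for chow renin against chow null (2048) and 2255 for HFD renin against chow renin (3440). The central neuron score gave 37, 68 and, in the interaction (1589), 29. Leaving out 1 library gave 1512 to 2268, 2473 to 3667 and 1220 to 1951 in these 3. The cause was not tested.

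Members called stayed at 3 in chow renin against chow null, HFD renin against chow renin and the interaction, except with the central neuron score (0, 1 and 1). They stayed at 0 in the other comparisons, except that Cxcl14 was called between HFD renin and HFD null in DESeq2 (1) and in 1 of the fits with a library left out (0 to 1).

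With the replicate number as a block, the replicate block fit called 1325, 2246, 0, 1578, 3670 and 1618 genes (HFD renin, chow renin and HFD null against chow null, HFD renin against HFD null, HFD renin against chow renin, and the interaction), and 0, 3, 0, 0, 3 and 3 members. Over 28 pairs the correlation of same-numbered hearts ran from -0.226 to 0.421, and 11 were above 0.1. All pairs of replicate 3 lay between 0.220 and 0.421, and pairs of other numbers reached at most 0.161. The hearts of replicate 3 thus moved alike across the groups, and whether the numbers pair the hearts is not settled.

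Depth limits Ccl8, Ccl24 and Ccl11, with 1 to 18, 9 to 38 and 8 to 161 reads in a heart. Chow null had the fewest hearts and the lowest totals. Both covariates differ between groups, so a call lost with them does not show which of the 2 moved the gene. The central neuron score was also not normalized to each library's own size, so results with it are given as values only.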
